A study of Mus musculus with 12 samples.

Results

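Fructose refeeding in control liver was examined in 4 of the 12 liver RNA-seq libraries of the series, chosen by their diet and genotype labels. In 2 mice, an overnight fast of 16 h was followed by 4 h of normal chow with drinking water that held 30% fructose. The 2 mice they were compared with had been fasted for 16 h and not refed. All 4 carried floxed Med13 alleles (Med13 fl/fl) on the C57BL6J strain without a Cre transgene in their label, and were 12 weeks old. The other libraries used for comparison came from 2 control mice refed for 4 h with the same chow and 30% sucrose, and from 2 fasted and 2 fructose-refed mice labelled MED13-LKO, in which Alb-Cre acts in hepatocytes. All were of the same strain and age. No library used here came from a mouse refed with chow and plain water, so the effects of the chow and of the fructose cannot be told apart. The refed mice were killed later in the day than the fasted mice, so feeding and time of day cannot be told apart either.

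In a fasted liver, glucagon and glucocorticoids favour gluconeogenesis, amino acid breakdown and fatty acid oxidation, and FOXO1 activates genes such as G6pc, Igfbp1 and Irs2. Feeding raises insulin, which removes FOXO1 from the nucleus and activates SREBP-1c, while sugar metabolites activate ChREBP (gene Mlxipl), and both factors drive the enzymes that turn carbohydrate into fatty acids. Fructose enters the liver cell without passing the regulated step of glycolysis, is phosphorylated by ketohexokinase and, once split, is phosphorylated again by triokinase. It is known both for strong activation of ChREBP and for raising G6pc through that factor.

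Some of this regulation acts at the promoters of the genes. The stretches below lie just upstream of 4 genes described in the next paragraphs, and each ends before the first exon base that the GENCODE annotation gives the gene in that window. They are RefSeq promoter sequences on GRCm38.p6, all on the plus strand and 5′ to 3′. Capitals mark 1 of 3 short motifs, searched on both strands: the carbohydrate response element spacing bound by ChREBP with its partner MLX (CACG and CGTG, 9 bases apart), the insulin response core CAAAACA bound by FOXO factors, and the core of the cyclic AMP response element, ACGTCA.
Pklr (chr3:89136373-89136571), liver pyruvate kinase: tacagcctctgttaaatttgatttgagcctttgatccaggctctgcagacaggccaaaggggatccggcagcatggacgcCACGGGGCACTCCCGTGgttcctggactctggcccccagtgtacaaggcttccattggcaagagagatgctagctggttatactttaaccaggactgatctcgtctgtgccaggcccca
Igfbp1 (chr11:7197537-7197781), a secreted IGF-binding protein: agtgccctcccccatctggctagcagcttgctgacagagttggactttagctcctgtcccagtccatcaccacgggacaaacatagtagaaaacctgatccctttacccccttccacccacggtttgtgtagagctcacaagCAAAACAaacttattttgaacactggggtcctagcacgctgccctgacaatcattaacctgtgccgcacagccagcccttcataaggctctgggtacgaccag
G6pc (chr11:101367466-101367560), the glucose-6-phosphatase catalytic subunit: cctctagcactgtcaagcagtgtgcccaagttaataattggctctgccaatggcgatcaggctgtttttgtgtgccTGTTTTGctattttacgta
Pck1 (chr2:173152823-173153047), cytosolic phosphoenolpyruvate carboxykinase: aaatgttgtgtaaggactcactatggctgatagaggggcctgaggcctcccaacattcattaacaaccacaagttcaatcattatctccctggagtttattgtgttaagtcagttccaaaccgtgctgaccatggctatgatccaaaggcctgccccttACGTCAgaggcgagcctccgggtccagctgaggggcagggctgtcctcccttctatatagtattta

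The Pklr stretch belongs to the more downstream of its 2 RefSeq start sites and lies between annotated exons of the longer transcript, and its motif spans bases -170 to -154 from that start. The insulin response core lies at -108 to -102 in Igfbp1 and, on the other strand, at -174 to -168 in G6pc, while the Pck1 motif lies at -91 to -86. Within 250 bases upstream of the start, the carbohydrate response element spacing was found in 1 of 116 windows of genes that rose more than 1 on the log2 scale (0.862%), in 0.349% of windows of all genes tested and in 0.219% of all RefSeq windows. The insulin response core was in 4.95% of the 101 windows of genes that fell more than 1 and in 6.03% of those of rising genes, against 4.05% for genes tested and 5.56% for all windows. The cyclic AMP core was in 11.9% of the windows of falling and 9.48% of those of rising genes, against 9.44% and 6.47%. The plain E-box CACGTG, which can overlap the carbohydrate response element, was in 1.72% of the windows of rising genes and 12.9% of those of falling genes, against 8.07% for genes tested and 6.02% for all windows. RefSeq windows were found for 93 of 120 such rising genes and 75 of 102 falling symbols.

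The values are normalized counts, in which each library was scaled to a common depth by the authors. They summed to 22.3 M and 21.1 M in fructose-refed mice 1 and 2, to 23.2 M and 24.2 M in fasted mice 1 and 2, and to between 17.3 M and 24.2 M over all 12 libraries. Read from the spacing of low values in genes with a single transcript, the 4 libraries held an estimated 18.7 M to 20.5 M reads on genes. Albumin, a defining product of hepatocytes, made up 7.97% to 10.4% of the total in these 4. Of 41 markers of Kupffer, sinusoidal endothelial, stellate, bile duct and blood cells, 34 were abundant enough to test between fructose and fasting. Limma with Benjamini-Hochberg adjustment called 0 of them, and 3 had an unadjusted p under 0.05. Over all 12366 genes tested, 5.6% were called and 2829 had an unadjusted p under 0.05. In whole liver, fewer cells of a type and less RNA per cell cannot be told apart.

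Refeeding with fructose moved 692 of the 12366 genes tested (5.6%), those averaging 10 normalized counts or more over the 12 libraries, at an adjusted p under 0.05 in limma with Benjamini-Hochberg adjustment. Of these, 345 were higher (2.79%) and 347 were lower (2.81%) than in fasted liver, which are the background shares for the gene lists below. A difference of more than 1 in log2(normalized count + 1), the scale of every log2 fold change given here, was reached by 223 of them (1.8%), of which 120 were higher and 103 lower. The 2 fructose-refed mice did not overlap with the 2 fasted mice in any of the 692 genes, but this was also the case for 50.8% of all genes tested. At an unadjusted p under 0.05 in limma, 2829 of the 12366 genes differed from fasting, 1411 higher and 1418 lower. These are the background for the unadjusted counts against fasting in the gene lists. With 2 mice a group, the spread was estimated over all 6 groups of the series. Fitted with the 6 control libraries alone, 194 genes passed, and with only these 4 libraries 27 did. Without fructose-refed mouse 1, 280 genes passed. Without fasted mouse 1 or fasted mouse 2, 274 and 128 genes passed.

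**Figure D1:**
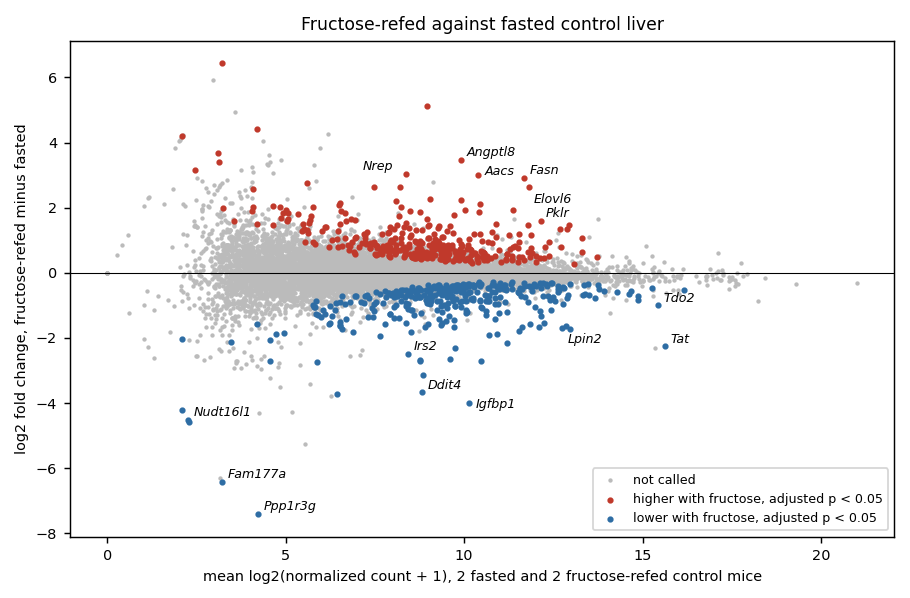
Each point is a gene, plotted by its mean log2(normalized count + 1) over the 2 fasted and 2 fructose-refed control mice (horizontal) and its log2 fold change, fructose-refed minus fasted (vertical). Red and blue points are the 345 higher and 347 lower genes with an adjusted p under 0.05, and named genes such as Angptl8, Fasn, Igfbp1 and Tat are among the most changed of the well-expressed genes.

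Among the genes of de novo lipogenesis, 6 of 15 rose with fructose and the other 9 did not pass the test. The median log2 fold change was 1.44 over the list against -0.01 over all genes tested. Fasn, which builds palmitate, was at 1290 and 1085 normalized counts in the fasted mice and at 9981 and 8111 in the fructose-refed mice. Both refed mice stood far above both fasted mice, a rise of 2.93 ± 0.37 (log2 fold change ± SE, n = 2 against 2 mice, adjusted p = 0.003 in limma), or 7.6-fold. Elovl6, which elongates palmitate, went from 1767 and 1163 to 10625 and 7500, a log2 fold change of 2.64 ± 0.41. The mice were again separate, by a wider margin in mouse 1. Acly, which makes cytosolic acetyl-CoA, rose from 5029 and 4321 to 13799 and 12316. Acaca, the acetyl-CoA carboxylase of fatty acid synthesis, rose from 2372 and 1878 to 5937 and 5829, and 34% of its 31-base subsequences also occur in other genes. The mitochondrial isoform Acacb rose from 462 and 310 to 1411 and 750.

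Mid1ip1, which helps acetyl-CoA carboxylase to polymerise, rose from 829 and 540 to 2843 and 2991 (log2 fold change 2.12 ± 0.18). Its partner Thrsp was at 9297 and 6494 in fasted and 27327 and 22044 in refed liver, which did not overlap, yet the log2 fold change of 1.66 ± 0.52 did not pass (limma adjusted p = 0.095), although it did with the 6 control libraries alone (adjusted p = 0.026). Scd1, the desaturase that makes oleate, was at 40814 and 25996 in fasted and at 63815 and 34307 in refed liver. The groups overlapped, with refed mouse 2 between the fasted mice, and the 95% interval of the log2 difference ran from -0.59 to 1.63. The citrate carrier Slc25a1 and the desaturases Fads1 and Fads2 had log2 fold changes of 0.13, 0.07 and 0.03. Leaving out refed mouse 1, the median log2 fold change of the list was 0.89, and leaving out refed mouse 2 it was 1.49.

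Of 10 factors that control lipogenesis, Srebf1 passed the test. The gene, which encodes SREBP-1, was at 5172 and 3349 in the fasted mice and at 9605 and 11426 in the fructose-refed mice. Both refed mice were above both fasted mice, with a log2 fold change of 1.33 ± 0.27 (limma adjusted p = 0.022). The call was lost without either refed mouse, at log2 fold changes of 1.46 without mouse 1 and 1.21 without mouse 2 (limma adjusted p = 0.06 and 0.058), and without fasted mouse 2, at 1.02 (adjusted p = 0.15). Mlxipl, the gene of ChREBP, was at 4043 and 3301 fasted and 4668 and 5297 refed, a log2 difference of 0.44 with a 95% interval of 0.15 to 0.74 that did not pass after adjustment (limma adjusted p = 0.081). The table gives 1 value for all Mlxipl transcripts, so the isoforms of ChREBP could not be separated.

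Of 11 genes known as targets of ChREBP, 5 rose, and the median log2 fold change of the list was 0.94. Angptl8, a secreted inhibitor of lipoprotein lipase made after meals, had the largest rise among the genes named for size, by a rule given below. It went from 264 and 317 normalized counts in fasted liver to 4001 and 2589 in refed liver, 11.1-fold (log2 fold change 3.47 ± 0.25, limma adjusted p = 0.00035). Pklr, whose promoter is printed above, went from 2516 and 2675 to 7397 and 8376 (log2 fold change 1.60 ± 0.25). Tkfc, the triokinase that feeds fructose carbons into glycolysis, went from 4784 and 4736 to 10999 and 13380. Gpd1, which makes the glycerol backbone of triglyceride, went from 3594 and 4081 to 6973 and 7705, and the repressor Klf10 from 184 and 213 to 376 and 577. In Pklr, Tkfc, Gpd1 and Klf10 refed mouse 2 was the higher of the pair, and in the whole list mouse 2 was above mouse 1 in 10 of 11 genes. Over all genes tested, mouse 2 was above mouse 1 in 6169 of 12366.

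Txnip, an inhibitor of thioredoxin, was at 2032 and 2839 fasted and at 1225 and 2289 refed, overlapping between the groups. Fgf21, a hormone that curbs sugar intake, was scarce in the RNA, at 1.13 and 4.82 fasted and 16.6 and 25.8 refed, and did not pass (log2 fold change 2.63 ± 0.67, limma adjusted p = 0.052). At such low values the size depends on the pseudocount, being 3.08 with 0.1 (limma adjusted p = 0.047) and 1.26 with 10 (adjusted p = 0.15). G6pc, which releases glucose from glucose 6-phosphate and is under both FOXO1 and ChREBP, was at 7865 and 10424 in fasted liver and at 3665 and 7030 in fructose-refed liver. Both refed mice were below both fasted mice, mouse 2 only slightly so, and the log2 difference of -0.83 had a 95% interval of -1.47 to -0.20 that did not pass after adjustment (limma adjusted p = 0.12). Without refed mouse 2 it was -1.30 and passed (limma adjusted p = 0.013), and without refed mouse 1 it was -0.37 and did not (adjusted p = 0.46). With the replicate number as a block it passed narrowly (limma adjusted p = 0.0498). In the 2 sucrose-refed mice G6pc was at 3077 and 3178, below both fructose-refed mice, with a log2 difference of fructose minus sucrose of 0.70 (95% interval 0.06 to 1.33, limma adjusted p = 0.53).

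Of 9 genes of fructose uptake and breakdown, Tkfc and Glyctk rose. Glyctk, glycerate kinase, went from 4419 and 4505 to 6243 and 6428, a small but even rise of 0.51 ± 0.07 on the log2 scale, and 50% of its 31-base subsequences also occur in other genes. Khk, ketohexokinase, was at 1250 and 1168 fasted and 1557 and 1996 refed. Its groups did not overlap, but the log2 difference of 0.54 missed the threshold (limma adjusted p = 0.16). The fructose transporter Slc2a5, which is low in liver, lay at 106 and 179 fasted and 45.2 and 66.7 refed (log2 difference -1.31, limma adjusted p = 0.056).

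**Figure D2:**
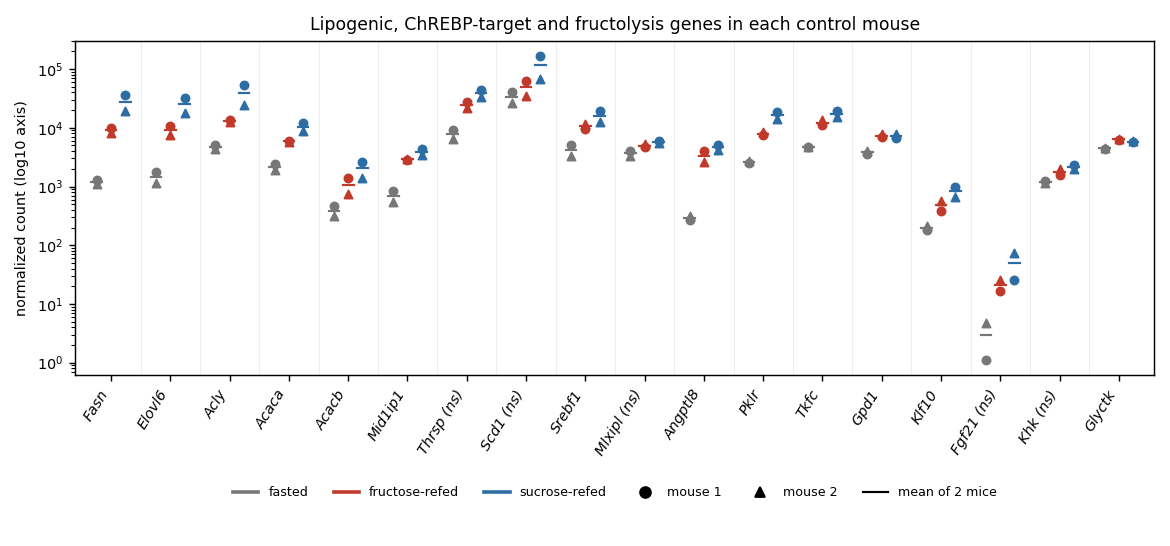
Normalized counts on a log10 axis of 18 lipogenic, ChREBP-target and fructolysis genes in each control mouse: grey fasted, red fructose-refed, blue sucrose-refed, circles mouse 1 and triangles mouse 2, with a bar at the mean of the 2 mice. Genes marked ns did not pass the test of fructose against fasting, and in Fasn, Elovl6 and Acly the sucrose-refed mice stood above both fructose-refed mice.

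Glycolysis and its neighbours gave a few further rises. Pklr, Gpi1 and Eno1 were the 3 of 13 glycolytic genes that rose. Gpi1, which turns glucose 6-phosphate into fructose 6-phosphate, went from 2874 and 2896 to 4912 and 4808, and Eno1, enolase, from 11450 and 11402 to 16076 and 15919. Both pairs were tight, with rises of 0.75 ± 0.18 and 0.49 ± 0.09 on the log2 scale. Without refed mouse 1 or with the 6 control libraries alone, 1 of the 13 passed, and without refed mouse 2, 2 did. Gpi1 lost its call whichever of the 4 mice was left out (limma adjusted p from 0.07 to 0.17). In the pentose phosphate group, Rpia, ribose 5-phosphate isomerase, was the 1 of 10 genes that rose, from 59.95 and 37.0 to 244 and 132. Over all genes tested, 2.79% rose. In triglyceride handling, the acyltransferase Agpat2 rose from 2266 and 2093 to 3247 and 2938, while 3 of the 13 genes fell. These were Lpin1 (5738 and 7043 to 1829 and 2490) and Lpin2 (11180 and 13924 to 3135 and 4687), phosphatidate phosphatases known to be induced by fasting, and Pnpla2, the lipase that starts triglyceride breakdown (1345 and 1322 to 827 and 794).

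The genes of gluconeogenesis fell in part. Of 15, 4 were lower with fructose, the other 11 did not pass, and the median log2 fold change was -0.42. Got1, the cytosolic aspartate aminotransferase, went from 8213 and 7263 to 2716 and 2190 (log2 fold change -1.66 ± 0.19, limma adjusted p = 0.0025). Ppargc1a, a coactivator of the fasting programme, went from 370 and 482 to 128 and 198. Klf15, a factor for amino acid use in gluconeogenesis, went from 3345 and 3847 to 1194 and 2025, and Mdh1, cytosolic malate dehydrogenase, from 665 and 759 to 436 and 418. In each of these genes both refed mice lay below both fasted mice.

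Pck1 differed widely between the refed mice. It was at 82070 and 105586 in fasted liver, at 7416 in fructose-refed mouse 1 and at 48079 in mouse 2. The log2 difference from the fasted mean was -3.65 in mouse 1 and -0.95 in mouse 2, with 6.48 times as much Pck1 RNA in mouse 2 as in mouse 1. The mean log2 fold change of -2.30 ± 0.71 therefore did not pass (limma adjusted p = 0.091), although all values of the refed mice lay below the fasted values. Without mouse 2 it passed (limma adjusted p = 0.0032), and without mouse 1 it did not (adjusted p = 0.32). The sucrose-refed mice were at 4235 and 9921.

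Insulin signalling and the genes under FOXO1 fell in 5 of 14 tested members, with a list median of -0.17. Igfbp1, which carries the insulin response core printed above, was at 4236 and 4703 in fasted liver and at 123 and 632 after fructose. Both refed mice were far below the fasted mice, mouse 1 by a log2 difference of -5.17 and mouse 2 by one of -2.82, giving a mean log2 fold change of -3.99 ± 0.64 (limma adjusted p = 0.0081), or 15.9-fold lower. Irs2, an insulin receptor substrate made in the fasted state, went from 703 and 942 to 122 and 170. Foxo1 itself went from 1527 and 1704 to 522 and 919, Foxo3 from 1379 and 1730 to 732 and 1065, and the stress protein Sesn1 from 352 and 361 to 187 and 254. In all 5, refed mouse 1 was the lower of the pair. The receptor Insr and the kinases Akt1 and Akt2 had log2 fold changes of -0.20, 0.27 and 0.04 and did not pass. Without refed mouse 1, 3 of the 14 were called lower, and without mouse 2, 5 were.

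Amino acid breakdown and the urea cycle held the largest share of falling genes among the metabolic lists, 9 of 18, with a median of -0.58. Tat, tyrosine aminotransferase, went from 97464 and 123400 to 17264 and 30692, 4.76-fold lower (log2 fold change -2.25 ± 0.22, limma adjusted p = 0.0018). Sds, serine dehydratase, went from 5863 and 5327 to 1403 and 1838, and Tdo2, which opens the tryptophan ring, from 61628 and 63643 to 29545 and 33086. In all 3, both refed mice lay well below both fasted mice, and mouse 1 was the lower of the pair. In the urea cycle, arginase Arg1 went from 40570 and 40009 to 22900 and 22096, Asl from 19751 and 17936 to 11802 and 13690, and the ornithine carrier Slc25a15 from 6054 and 6626 to 4894 and 5205. Cth, Oat and Prodh, which break down cystathionine, ornithine and proline, made up the 9, with log2 fold changes of -0.68, -0.60 and -0.46. Without refed mouse 1, 5 of the 18 passed, and without refed mouse 2, 10 did.

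**Figure D3:**
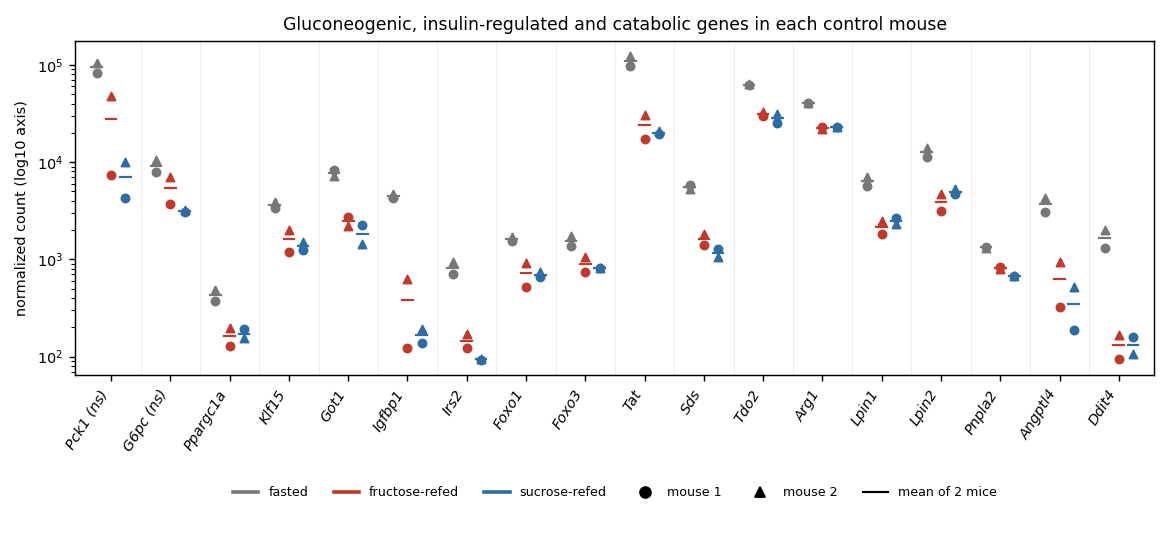
Normalized counts on a log10 axis of 18 gluconeogenic, insulin-regulated and catabolic genes in each control mouse, with colours, symbols and bars as in the plot of rising genes. Fructose-refed mouse 1 was the lower of the refed pair in Pck1, Igfbp1 and Angptl4, while Arg1, Tdo2 and Got1 were close in both mice.

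Of 24 genes of oxidation and ketone synthesis, Angptl4 passed, against 5.6% of all genes tested, and the list median was 0.01. The refed mice differed in direction, with list medians of -0.17 in mouse 1 and 0.11 in mouse 2. Mouse 1 was below mouse 2 in 22 of the 24 genes, and in 6169 of the 12366 genes tested. Without mouse 2, 4 genes were called lower, and without mouse 1, 1 was called higher and none lower (limma, 3 lower at an unadjusted p under 0.05 with both mice). Angptl4, the fasting-induced inhibitor of lipoprotein lipase, went from 3087 and 4281 to 323 and 947. Its relative Angptl8 moved the opposite way, as given above. Cpt1a, which admits fatty acids to mitochondria, was at 6754 and 8217 fasted and 5283 and 6049 refed, and Pdk4, which holds back pyruvate oxidation, at 199 and 268 fasted and 82.5 and 96.6 refed, neither passing the test (limma adjusted p = 0.16 and 0.067). Pdk4 passed with the replicate number as a block (limma adjusted p = 0.038) and with the 6 control libraries alone (adjusted p = 0.04). Cyp4a14, a target of PPARα, was at 24544 and 29558 in fasted liver and at 4212 in refed mouse 1 but 30743 in mouse 2, above both fasted mice.

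In glycogen metabolism, 1 of 14 genes rose and 2 fell. Pygl, the liver phosphorylase that breaks glycogen down, rose from 8232 and 7805 to 12065 and 13035. Gyg, glycogenin, which primes the glycogen particle, fell from 111 and 140 to 67.2 and 66.3. Ppp1r3g, a glycogen-targeting subunit of protein phosphatase 1, stood at 214 and 280 in the fasted control mice and at 1.10 and 0 in the fructose-refed mice. It had the largest fall among the genes named for size, -7.41 on the log2 scale with a pseudocount of 1, a size that is set largely by the pseudocount (-9.47 with 0.1 and -4.60 with 10). The call was lost with the pseudocount of 0.1 (limma adjusted p = 0.052) and without fasted mouse 2 (adjusted p = 0.065). Glycogen synthase Gys2, at 6065 and 6539 fasted and 6729 and 5421 refed, overlapped between the groups.

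Of 24 genes of cholesterol synthesis and uptake, 1 rose and 2 fell against fasting, compared with 2.79% and 2.81% of all genes tested. The list median was -0.11. Msmo1, a sterol demethylation enzyme, fell from 6710 and 6742 to 3650 and 2478, Tm7sf2, a sterol reductase, fell by 0.41 on the log2 scale, and the sterol carrier Stard4 rose by 0.64. Without refed mouse 1, 0 of the 24 were called by limma (7 at an unadjusted p under 0.05 with both mice), and without refed mouse 2, 2 were called higher and none lower. Refed mouse 1 was above mouse 2 in 22 of the 24 genes, and in 6181 of the 12366 genes tested. From the fasted mean, the list medians were 0.03 and -0.46 in fructose-refed mice 1 and 2, and 0.46 and 0.40 in the sucrose-refed mice. Mean levels with fructose were below those with sucrose in 24 of 24 genes, against 6331 of the 12366 genes tested. Limma called 0 of the 24 differences after adjustment, and 18 had an unadjusted p under 0.05, against 1061 of all genes tested.

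**Figure D4:**
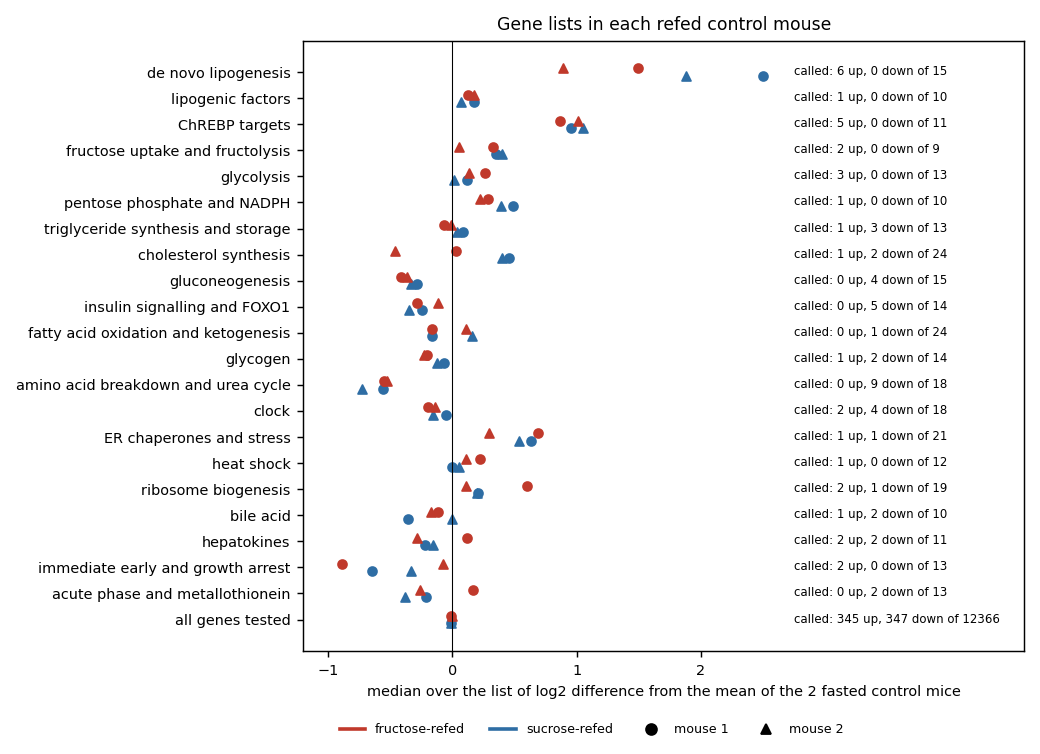
For each gene list, the median log2 difference from the mean of the 2 fasted control mice is shown in each refed control mouse (red fructose, blue sucrose, circles mouse 1, triangles mouse 2), with the number of genes called between fructose and fasting beside it. De novo lipogenesis lies at 1.49 and 0.89 in the fructose-refed mice and at 2.50 and 1.88 in the sucrose-refed mice, and cholesterol synthesis at 0.03 and -0.46 against 0.46 and 0.40.

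Outside metabolism, 6 of 18 clock and clock-output genes changed. Bhlhe40, a repressor of the clock that also responds to feeding, rose from 1380 and 1939 to 3325 and 4038, 1 of 2 that rose. Ciart (505 and 721 to 214 and 283), Dbp (1392 and 1377 to 586 and 761), Rora (log2 fold change -0.71) and Nr1d2 (-0.49) were the 4 that fell. Without refed mouse 1, 1 of the 18 was called, and without refed mouse 2, 6 were. These values carry the difference in time of day given above. The core loop genes Arntl, Clock and Per2 had log2 fold changes of 0.39, 0.39 and 0.38 and did not pass.

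Of 21 genes of endoplasmic reticulum folding and stress, 1 rose and 1 fell, and the list median was 0.44. Over all genes tested, 2.79% rose and 2.81% fell. Both refed mice were above both fasted mice in 15 of the 21 genes and below them in 1, against 24.3% and 26.5% of all genes tested. At an unadjusted p under 0.05 in limma, 11 of the 21 were higher and 1 lower, against 1411 and 1418 of the 12366 genes tested. Mouse 1 was above mouse 2 in 18 of the 21 and below it in 3. Xbp1, the factor of the unfolded protein response, rose from 2616 and 2434 to 7869 and 3999, with mouse 1 well above mouse 2. Herpud1 fell from 16490 and 17708 to 8363 and 11893. The chaperone Hspa5 was at 27705 and 24914 fasted and 58644 and 36913 refed and did not pass (log2 fold change 0.82, limma adjusted p = 0.18). In ribosome biogenesis, Rrp12 and Mybbp1a rose by 0.69 and 0.56 and Npm1 fell by 0.45 on the log2 scale, out of 19 genes. Mouse 1 was above mouse 2 in every gene of the list, and in 6181 of the 12366 genes tested. Without mouse 2, 8 of these 19 genes were called higher, and without mouse 1 none was called (limma, 9 of the 19 higher at an unadjusted p under 0.05 with both mice). Bag3, a co-chaperone, was the 1 of 12 heat shock genes that rose, from 461 and 416 to 914 and 802.

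Among secreted regulators, Angptl8 and Inhbe rose and Igfbp1 and Angptl4 fell, out of 11. Inhbe, the activin E subunit made by hepatocytes, went from 256 and 379 to 817 and 923. Of 10 bile acid genes, Nr1h4, the bile acid receptor FXR, rose from 2765 and 2552 to 3742 and 3683, while its target Nr0b2 fell from 391 and 791 to 170 and 218, and Cyp27a1 fell by 0.39 on the log2 scale. Of 13 immediate early and growth arrest genes, 2 rose and 0 fell, but the list median was -0.57 on the log2 scale. In this list 3 of the 13 had a log2 fold change above 0, against 6019 of the 12366 genes tested. At an unadjusted p under 0.05 in limma, 2 were higher and 5 lower. The 2 that rose were Atf3, from 17.0 and 13.4 to 56.1 and 46.5, and Gadd45a, from 38.4 and 47.9 to 162 and 210. The metallothioneins Mt1 and Mt2, zinc-binding proteins induced by glucocorticoids, were the 2 of 13 acute phase and metallothionein genes that fell. Mt1 went from 2575 and 1442 to 364 and 409, and Mt2, 58% of whose 31-base subsequences occur elsewhere, from 1794 and 1056 to 132 and 183.

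Several of the largest changes lay outside these lists. By a rule that asked for an adjusted p under 0.05, a log2 fold change beyond 1, no overlap and a mean of at least 100 in the higher group, 90 genes were higher and 87 lower, and the 15 at each end were named where they had a regular symbol. Aacs, which makes acetoacetyl-CoA for lipid synthesis, rose from 583 and 376 to 6260 and 2307, 8.1-fold by the mean of logs. Nrep rose from 142 and 90.5 to 2149 and 410. In both, mouse 1 was far above mouse 2 although each refed mouse exceeded the fasted mice. Cish, an inhibitor of cytokine and growth hormone receptors, rose from 103 and 129 to 910 and 584, and Phlda1 from 420 and 471 to 2583 and 1677. Inhba, the activin A subunit, rose from 110 and 143 to 1022 and 331, and Hcn3, an ion channel, from 257 and 226 to 887 and 1533. Tgm1, Bach2, Slc16a6 and Serpina7 completed the group with log2 fold changes of 2.63, 2.77, 2.13 and 2.01.

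At the other end, Ddit4, an inhibitor of mTORC1 induced by glucocorticoids and stress, fell from 1307 and 1980 to 94.7 and 166, 12.7-fold (log2 fold change -3.67 ± 0.40, limma adjusted p = 0.0022). Depp1, a FOXO target, fell from 1210 and 1002 to 178 and 162, and Arl4d from 1933 and 1927 to 258 and 374. In each, both refed mice were far under the fasted level. Zbtb16, a glucocorticoid-induced factor, went from 1013 and 1202 to 72.5 and 385, and Trp53inp1, of autophagy, from 4152 and 5838 to 580 and 2103. In both, mouse 2 lay between mouse 1 and the fasted mice. Ip6k2, AA986860 and Map2k6 were the others, with log2 fold changes of -3.73, -2.73 and -1.95.

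The 2 refed mice also differed over the whole table. Over the 12366 genes, the root mean square log2 distance from the fasted mean was 0.689 for fructose-refed mouse 1 and 0.627 for mouse 2, against 0.695 and 0.669 for the sucrose-refed mice, and mouse 2 was nearer to each fasted mouse (0.667 and 0.715) than mouse 1 was (0.741 and 0.755). The 2 fructose-refed mice were 0.680 from each other, farther apart than the fasted pair (0.582) or the sucrose pair (0.574). Among genes with a mean of at least 100 in the pair, 199 differed by more than 1 on the log2 scale between the fructose-refed mice, against 65 in the fasted and 61 in the sucrose pair. Mouse 1 was farther from the fasted mean in 218 of the 345 called higher genes (63.2%) and in 247 of the 347 called lower genes (71.2%), and in 54.6% of all genes tested. Distances are single values with no test.

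**Figure D5:**
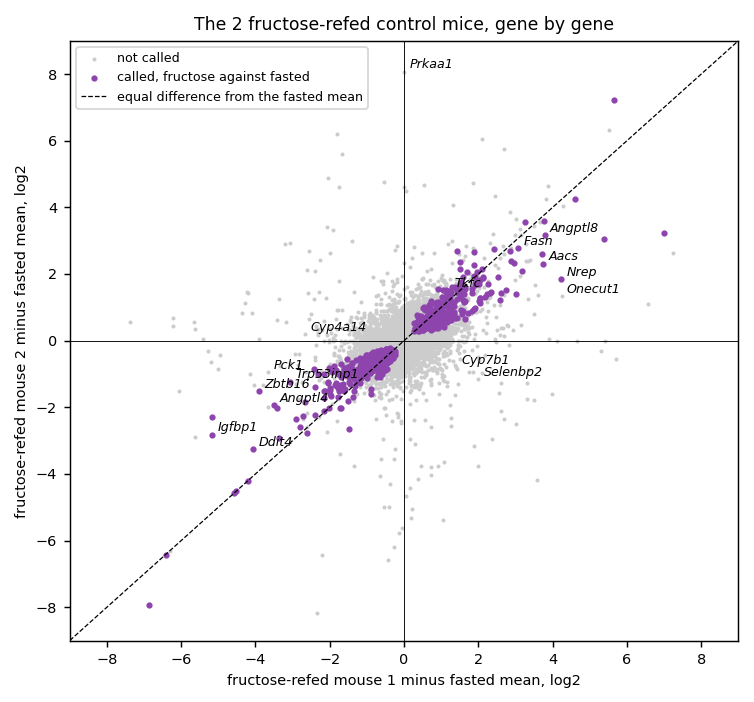
Each point is a gene, with its log2 difference from the mean of the 2 fasted control mice in fructose-refed mouse 1 (horizontal) and mouse 2 (vertical), and the dashed line marks equal differences. Called genes (purple) lie in the 2 corners where both mice moved the same way, and Igfbp1, Zbtb16 and Trp53inp1 lie off the line because mouse 2 had moved less.

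The genes that differed most between the 2 fructose-refed mice were of several kinds. Moxd1, Adam9 and Prkaa1 were listed at 0 in 1 refed mouse and at 216, 244 and 268 in the other. Prkaa1, a catalytic subunit of AMP-activated kinase, was listed at 0 in both fasted mice and in refed mouse 1 and at 339 and 360 in the sucrose-refed mice. Whether a listed 0 means that the RNA was absent was not tested. Glce, Ddx41, Trip12 and Tmem131l had values of 3.38, 14.3, 28.6 and 25.3 in 1 refed mouse and of 212, 331, 518 and 190 in the other. Other genes were abundant and higher in mouse 1. Onecut1, a hepatocyte transcription factor, was at 4030 in mouse 1 and 536 in mouse 2, against 280 and 161 fasted, and Selenbp2 at 13872 and 1543, against 3857 and 3104, with 53% and 59% of their 31-base subsequences shared with other genes. Fabp5, a fatty acid carrier, was at 312 and 43.8, against 79.1 and 92.6 fasted. Pck1 and Cyp4a14 were among the 8 genes that were lowest in mouse 1 relative to mouse 2.

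Between fructose and sucrose refeeding in control mice, 5 genes passed the test (0.0404% of those tested). Nnmt, nicotinamide N-methyltransferase, was at 2872 and 2488 with fructose and at 1216 and 1141 with sucrose, a log2 difference of 1.18 ± 0.09 (limma adjusted p = 0.00061), with fasted mice at 3602 and 3196. The fructose-refed mice thus lay near the fasted level and apart from the sucrose-refed mice. Fam177a and Nudt16l1 were listed at 0 in both fructose-refed mice, against 67.0 and 68.0 and 39.1 and 26.9 with sucrose, and 98% of the 31-base subsequences of Fam177a occur in other genes. Ighv1-50, an immunoglobulin segment, was at 45.3 and 47.1 with fructose and 1.02 and 0 with sucrose. De novo lipogenesis genes were lower with fructose than with sucrose in 14 of 15 cases, against 6331 of the 12366 genes tested. Their median log2 difference was -0.91. Limma called 0 of the 15 after adjustment, and 11 had an unadjusted p under 0.05, against 1061 of all genes tested. Fasn stood at 35838 and 19511 with sucrose, a difference of -1.56 (95% interval -2.37 to -0.74, limma adjusted p = 0.28), and Me1, malic enzyme, at 14994 and 9907 against 4976 and 5381, a difference of -1.24 (95% interval -1.61 to -0.86, adjusted p = 0.053).

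The response to fructose was set beside that in the mice labelled MED13-LKO by the interaction of diet and genotype, which 3 of the 12366 genes passed (0.0243%). Med13 RNA, the targeted gene, was at 808 and 899 in the fasted and 681 and 1055 in the fructose-refed libraries labelled MED13-LKO, and at 674 and 796 and at 607 and 778 in the control libraries, so its level in this table does not separate the genotypes. Whether the value counts reads of the deleted exons was not examined. Paqr9, a membrane receptor of the adiponectin receptor family, rose in control liver from 1298 and 1411 to 5021 and 5213 (log2 fold change 1.92 ± 0.09), the smallest adjusted p among the named genes (1.4e-05). In the libraries labelled MED13-LKO it went from 2140 and 2038 to 3759 and 3890, a response smaller by 1.05 ± 0.13 on the log2 scale (limma adjusted p = 0.037). Fam177a and Nudt16l1 were the others. Cish and Phlda1 were named above for their large rises in control liver. In the libraries labelled MED13-LKO, Cish was at 132 and 139 fasted and at 129 and 66.1 fructose-refed. Phlda1 was at 464 and 408 fasted and at 426 and 433 fructose-refed. Their interactions of -3.19 ± 0.44 and -2.24 ± 0.31 missed the threshold (limma adjusted p = 0.068 for both). The control rise that they were picked for also enters the interaction, so the choice itself favoured negative values. For the other genes named for size the interaction is not given here.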

How the data were processed

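Whole-liver RNA was sequenced by a commercial provider as 150-base paired-end reads. Per the labels and the study's methods, the authors trimmed reads with Trim Galore 0.6.5, estimated transcript counts with kallisto 0.46.0 and normalized them per gene with DESeq2 1.24.0 (mm10). The deposited values are a signal on a count-like scale, not whole counts: 37.7% to 54.0% of values per library came out as whole multiples of a common step within a tolerance of 0.02, so no count test was run. Of 16346 genes, 12366 with a mean of at least 10 over the 12 libraries were tested as log2(value + 1) in limma 3.58.1 (R 4.3.3), with 6 group means and trended moderation of the spread, and p-values were adjusted by Benjamini-Hochberg over all 12366.

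Groups came from the diet and genotype labels. The columns of refed mice are numbered 2 and 3 in the table, and the 2 mice are called mouse 1 and mouse 2 after the sample titles. The study's methods say that mice were group-housed, but no source used here says which mice shared a cage or were paired. The p-values set differences against the spread between these samples, pooled over all 6 groups. The groups compared and the gene lists were chosen with earlier results of these data known. Named genes were those of the lists, the 15 largest called rises and falls, every gene called in the other comparisons and the 8 genes each way that differed most between the refed mice. Genes without a symbol, Rik and Gm genes and pseudogenes were counted but not named, and a few other genes are counted in the lists but not reported here. Shared 31-base subsequences were counted in the GENCODE transcripts of the reference. Alternatives changed the pseudocount (0.1, 10), the filter, the scaling, the replicate block, the weights and the libraries fitted, and their effect is given in the closing section. A run on simulated data gave every group the same spread, so it cannot show how the test behaves with the more distant fructose-refed pair. Tables and figures were made with pandas 2.3.3, NumPy 2.4.6 and matplotlib 3.10.9 in Python 3.11.15.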

Additional observations from a re-analysis of the deposited data

Results flagged for a closer look

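The response to fructose differed between control mice and mice labelled MED13-LKO in 3 genes, by the interaction of diet and genotype in limma with Benjamini-Hochberg adjustment. Paqr9 rose in both genotypes, and its response in the libraries labelled MED13-LKO minus that in control was -1.05 on the log2 scale (adjusted p = 0.037). Fam177a had a difference of 6.09 (adjusted p = 0.0049) and Nudt16l1 of 7.34 (adjusted p = 0.037). Both were listed at 0 in the fructose-refed control mice, so these sizes depend on the pseudocount, and with a pseudocount of 10 limma called 0 genes (1180 at an unadjusted p under 0.05).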

How the results depend on the processing

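All 692 genes called between fructose-refed and fasted control mice kept their direction in every alternative run. The groups did not overlap in any of the 692, so leaving out a mouse or changing the pseudocount could not reverse a direction. The kept direction is therefore no check of the calls. The count was 674 and 695 with pseudocounts of 0.1 and 10, 591 without the filter, 685 and 682 after 75th-percentile and median-ratio rescaling, 388 with array weights, 194 with the 6 control libraries and 27 with the groups compared alone. Array weights were equal within each group, 0.629 for both fructose-refed control mice, so they could not weigh 1 mouse of a pair against the other. Leaving out 1 library gave from 128 genes, without fasted mouse 2, to 976, without fructose-refed mouse 2, with 274 without fasted mouse 1 and 280 without fructose-refed mouse 1. Of the 976, 501 were among the 692. The cause was not tested.

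Between fructose and sucrose, 12 and 3 genes were called with pseudocounts of 0.1 and 10, 8 without the filter, 3 with array weights, 1 with the 6 control libraries and 0 with the groups compared alone (limma, 655 at an unadjusted p under 0.05). Leaving out 1 library gave 8 (without sucrose-refed mouse 1) to 73 genes (without fructose-refed mouse 2), with 17 without fructose-refed mouse 1 and 18 without sucrose-refed mouse 2. In the interaction, 0 genes were called with a pseudocount of 10 (limma, 1180 at an unadjusted p under 0.05), 7 without the filter, and 1 each with array weights and the groups compared alone. Leaving out 1 library gave 0 (without the fasted library 2 labelled MED13-LKO, 955 at an unadjusted p under 0.05) to 47 genes (without fructose-refed control mouse 2). Where a group was left with 1 mouse, it was assumed to vary like the other groups.

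Replicate numbers were taken from the sample titles, and the column numbers of the refed mice differ from them. Deviations of same-numbered fasted and fructose-refed control mice had a correlation of -0.06 across genes. The correlation was 0.05 for sucrose- and fructose-refed control mice, -0.02 for fasted mice of both genotypes and -0.14 for fructose-refed mice of both genotypes. These values gave little sign of pairing by title number, but they cannot show that the mice were unpaired. A match by column number was not tested. With the replicate number as a block, 563 genes were called for fructose against fasting (536 of them among the 692), 3 against sucrose and 1 in the interaction. With the numbers of the fructose-refed libraries labelled MED13-LKO crossed, an alternative chosen after seeing the data, the interaction called 1 gene.

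Mouse 2 was nearer to the fasted mean than mouse 1 in every setting, by 0.0416 to 0.0926 in root mean square log2 distance. Not all genes named in the text were followed through the alternatives. The calls lost and gained that follow are for 97 of them. Of 97 genes named in the text, 83 were called, and 13 of these lost the call under the block, 23 with array weights, 41 with the 6 control libraries, 71 with the groups compared alone, and 42, 56, 42 and 11 without fasted mouse 1, fasted mouse 2, refed mouse 1 and refed mouse 2. Calls were gained by G6pc and Pdk4 under the block, Thrsp and Pdk4 with the 6 control libraries, Fgf21 with a pseudocount of 0.1 and after 75th-percentile rescaling, and Pck1, G6pc, Slc2a5 and Cyp4a14 without refed mouse 2. Without refed mouse 1, limma called 0 genes of the pentose phosphate, heat shock and bile acid lists (5, 4 and 4 at an unadjusted p under 0.05 with both mice) and 1 each of the endoplasmic reticulum, immediate early and acute phase lists. Without refed mouse 2 it called 2, 3, 2, 3, 5 and 4 of these lists in turn. The sign changed for Cyp4a14, from -2.68 without refed mouse 2 to 0.19 without refed mouse 1. With 2 mice a group, differences near the spread between mice were not detectable.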

Other observations

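Markers of the liver zones were listed as well. Of 7 periportal genes, Sds fell, as given above, the list median was -0.54 on the log2 scale, and in 6 genes both refed mice were below both fasted mice, as they were in 26.5% of all genes tested. In limma 5 of the 7 were lower at an unadjusted p under 0.05, as were 1418 of the 12366 genes tested. Of the 5 periportal genes, 4 did not pass after adjustment. Besides Sds, 4 of the 7 are urea cycle or amino acid genes counted above. Of 7 pericentral genes, Oat fell. Glul, glutamine synthetase of the cells around the central vein, was at 11693 and 12397 in fasted and 14483 and 15465 in fructose-refed liver, with no overlap but an adjusted p of 0.12 in limma. Cyp2e1, also pericentral, was at 179000 and 213756 fasted and 175657 and 179957 refed. Cyp2f2, a periportal enzyme, was at 20975 and 22356 fasted and 21548 and 21005 refed, within the fasted range.

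A further set of genes was picked after its values were seen, because fructose-refed mouse 1 stood above every other control mouse, and is given with no test. They are liver genes that growth hormone is known to regulate or that are secreted in quantity. This grouping, too, was made after the values were seen and was not tested. Cyp7b1, an oxysterol hydroxylase, was at 9859 in mouse 1 and 2155 in mouse 2, against 3650 and 3865 in the fasted and 2119 and 2965 in the sucrose-refed mice. Hsd3b5, a steroid dehydrogenase, was at 4518 and 820, against 984 and 1328 fasted. Socs2, a feedback inhibitor of growth hormone signalling, was at 908 and 317, against 213 and 107 fasted, and C8b, of complement, at 10617 and 4672, against 5483 and 6356. Mup20 and Serpina1e were also higher in mouse 1, with 64% and 54% of their 31-base subsequences shared with other genes.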
